A study of Mus musculus with 12 samples.

Results

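Transforming growth factor beta (TGF-beta) signalling has been described as excessive in mouse models of osteogenesis imperfecta, the brittle bone disease. The genes described here are 9 members of that pathway: the ligands Tgfb1, Tgfb2 and Tgfb3, the receptors Tgfbr1, Tgfbr2 and Tgfbr3, the latency proteins Ltbp1 and Ltbp3, and the induced matrix protein gene Tgfbi. They were chosen by symbol from the 47069 genes of the count matrix, with earlier results of these data known, and all 9 were present.

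RNA sequencing was performed on the marrow-flushed tibia shafts of 12 male mice at 8 weeks of age, with 4 mice in each of 3 groups on a mixed FVB/C57BL6 background. Jrt;Sost-het mice carried 1 Col1a1 Jrt allele, a splice donor variant of collagen type I that causes severe bone fragility, and were heterozygous for a Sost deletion (the Sost genotype comes from the methods of the study, and the labels give only that of Col1a1). Jrt;Sost-ko mice carried the same Jrt allele and lacked both Sost alleles, and so lacked sclerostin, the osteocyte-derived inhibitor of bone formation. WT mice were wild type at both loci and came from a separate parallel colony. Genotype and colony therefore cannot be told apart in any comparison with them. Every Jrt mouse also lacked at least 1 Sost allele, so those comparisons cannot separate the Jrt allele from Sost loss.

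TGF-beta is secreted in a latent form, in which the ligand remains wrapped in its own propeptide and is tethered to the bone matrix by latent TGF-beta binding proteins. Release occurs during osteoclastic resorption or when integrins pull on the propeptide, after which the ligand binds the type II receptor, the type I receptor is recruited and SMAD proteins carry the signal to the nucleus. In bone the pathway is known for coupling resorption to formation and for restraining the late maturation of osteoblasts.

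The sequences that distinguish the ligands are the sites where the precursor is cut and where integrins hold it. In the GENCODE M21 annotation of GRCm38, the furin-type cleavage site lies in exon 5 of 7 in the reference transcript of each ligand. The coding strand around it is printed 5′ to 3′, with the 4 codons of the site in capitals.

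Tgfb1, chr7:25697223-25697264, plus strand: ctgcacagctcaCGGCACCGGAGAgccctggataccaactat

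Tgfb2, chr1:186630618-186630659, minus strand: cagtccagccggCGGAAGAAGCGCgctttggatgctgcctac

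Tgfb3, chr12:86062036-86062077, minus strand: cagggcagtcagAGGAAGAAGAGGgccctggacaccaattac

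All 3 coding sequences left 112 codons after this site, which is the mature ligand. Over those 336 bases Tgfb1 and Tgfb3 were identical at 73.5% of positions, Tgfb2 and Tgfb3 at 70.8% and Tgfb1 and Tgfb2 at 68.8%. Upstream in the same exon, Tgfb1 and Tgfb3 each held 1 in-frame Arg-Gly-Asp triplet, the integrin-binding motif, and the coding sequence of Tgfb2 held 0. The triplet is in capitals in the following lines.

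Tgfb1, chr7:25697127-25697165, plus strand: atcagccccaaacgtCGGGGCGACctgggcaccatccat

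Tgfb3, chr12:86062150-86062188, minus strand: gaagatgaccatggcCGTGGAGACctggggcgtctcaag

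The promoters of the most and the least abundant ligand are shown because the data separate these genes by level. Each line holds 250 bases before and 50 after the transcription start in RefSeq on GRCm38.p6, read on the coding strand. Capitals mark TATAAA (the TATA box), GGGCGG (the GC box), CCAAT (the CCAAT box) or GTCTAGAC (the SMAD palindrome), searched on both strands.

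Tgfb1, chr7:25686752-25687051, plus strand: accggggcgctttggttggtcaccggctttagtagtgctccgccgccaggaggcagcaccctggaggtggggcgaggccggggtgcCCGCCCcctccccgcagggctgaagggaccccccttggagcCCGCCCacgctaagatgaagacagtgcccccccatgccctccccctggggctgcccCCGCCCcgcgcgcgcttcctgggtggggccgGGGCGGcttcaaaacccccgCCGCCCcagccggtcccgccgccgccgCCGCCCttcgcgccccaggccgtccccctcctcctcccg

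Tgfb2, chr1:186705940-186706239, minus strand: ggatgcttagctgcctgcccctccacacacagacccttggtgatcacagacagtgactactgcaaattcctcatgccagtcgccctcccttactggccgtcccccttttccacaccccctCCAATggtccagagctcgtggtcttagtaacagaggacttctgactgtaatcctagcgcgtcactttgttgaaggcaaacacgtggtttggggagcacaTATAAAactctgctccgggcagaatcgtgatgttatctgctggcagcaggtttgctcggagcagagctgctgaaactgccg

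The Tgfb1 window was 77.0% G and C and held 6 GC boxes and 0 TATA boxes. The Tgfb2 window was 54.3% G and C and held 0 GC boxes, 1 CCAAT box and 1 TATA box at position -31 from the start. The median G and C content of all 32851 promoters of this length was 52.7%. Of these promoters 13.6% held TATAAA, 35.7% GGGCGG, 37.4% CCAAT and 0.213% GTCTAGAC. Promoters of 7 members were in the table, Tgfbr1 and Ltbp1 with a pair each. Among these 9 windows, 1 held TATAAA, 3 held GGGCGG, 5 held CCAAT and 0 held GTCTAGAC.

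Between 24366061 and 44418863 reads were assigned to genes per mouse (median 29949945). Sost, the deleted gene, averaged 0.671 CPM (TMM-scaled read counts relative to library size) in Jrt;Sost-ko mice against 39.9 in Jrt;Sost-het and 53.4 in WT mice, as labelled. Osteocyte markers were present in every mouse (for example Dmp1, at least 111 CPM), but so were transcripts of blood and marrow cells, led by the beta globin gene Hbb-bs at a mean of 10888 CPM. Skeletal muscle markers summed to between 35.7 CPM in Jrt;Sost-ko mouse 4 and 32758 CPM in WT mouse 4. Keratinocyte markers summed to 117 CPM in WT mouse 3 and 557 CPM in WT mouse 4 and to at most 2.65 CPM in the other 10 mice. The values of both Jrt groups against WT are therefore also given without WT mice 3 and 4. In such bulk tissue, fewer cells of a type and less RNA per cell cannot be told apart.

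None of the 9 genes differed between genotypes beyond the spread between mice. Over the 36 values (9 genes in 4 comparisons), the estimated log2 fold changes lay between -0.11 and 0.22, and the smallest unadjusted p in edgeR's quasi-likelihood test was 0.0545, for Ltbp1 in both Jrt groups against WT. The groups overlapped for every gene in every comparison. The spread between mice was uneven: Tgfb1 lay between 212 and 219 CPM in Jrt;Sost-ko mice, whereas Tgfb2, Tgfb3 and Ltbp3 varied more than 2-fold among WT mice and Tgfb2 also 2.19-fold among Jrt;Sost-ko mice. Differences in spread were not tested.

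**Figure D1:**
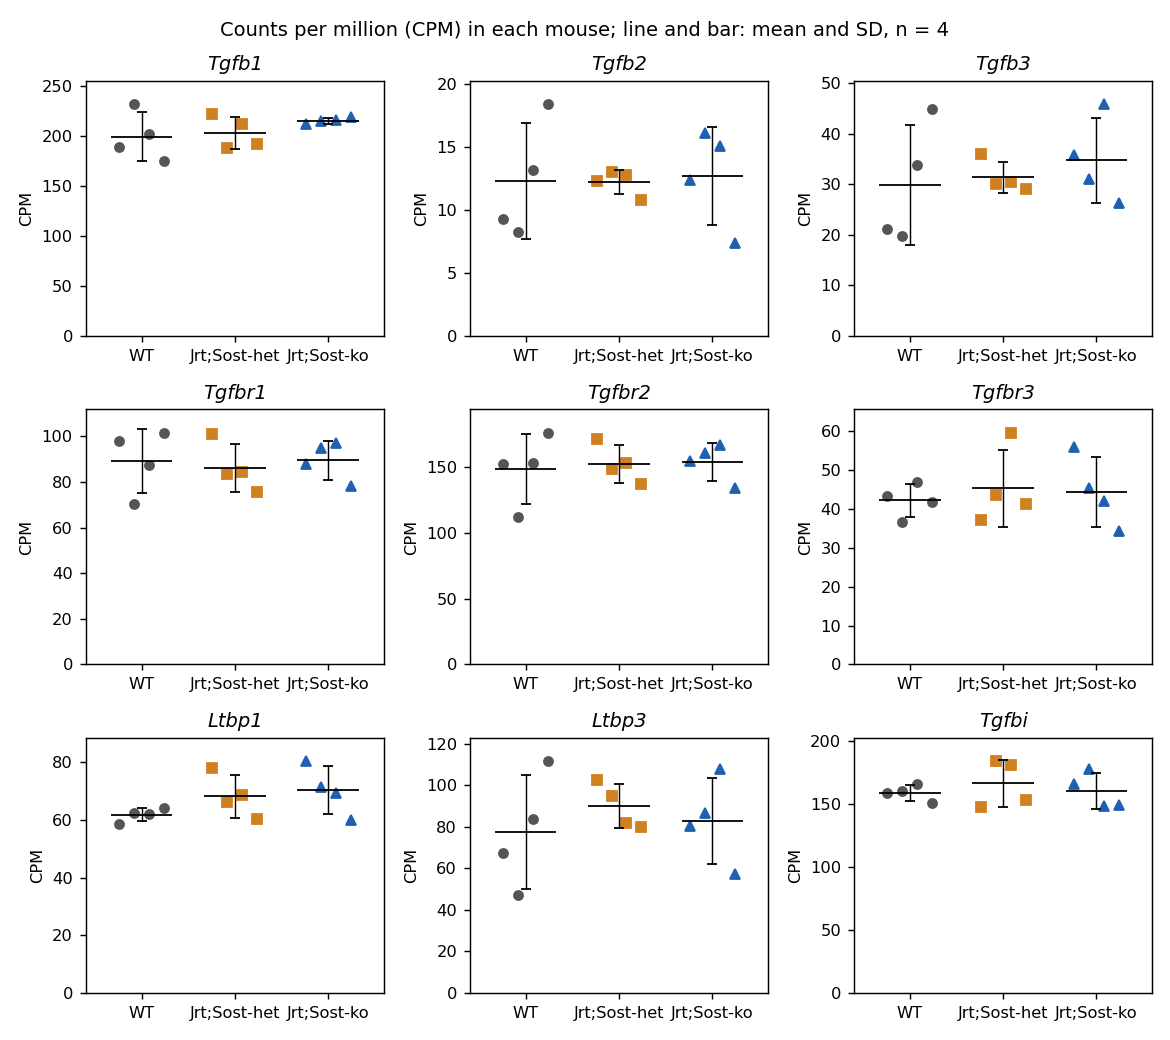
CPM of each gene (vertical axes, from 0) in each of the 12 mice, by group (circles WT, squares Jrt;Sost-het, triangles Jrt;Sost-ko, in mouse order 1 to 4). Horizontal lines are means and bars are SD (n = 4). The 4 Jrt;Sost-ko mice sit between 212 and 219 CPM for Tgfb1, while WT mice spread from 19.8 to 44.9 CPM for Tgfb3.

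Levels of different genes were compared per kilobase of exon (CPM per kb, mean ± SD over the 12 mice). Tgfbi (43.0 ± 3.49) and Tgfb1 (40.8 ± 3.32) were highest, and Tgfbi exceeded Tgfb1 in only 8 of 12 mice. Tgfbr2 followed at 18.5 ± 2.16 and Tgfbr1 at 13.5 ± 1.58, in that order in 12 of 12 mice. Tgfb3 (9.46 ± 2.37) and Ltbp3 (9.20 ± 2.15) were not separated, with Tgfb3 the higher in 6 of 12 mice. Tgfbr3 (6.72 ± 1.13) and Ltbp1 (6.25 ± 0.66) were also close, with Tgfbr3 the higher in 8 of 12. Tgfb2 was lowest at 2.14 ± 0.55 in 12 of 12 mice. The order depended on the length used. With the length of the longest transcript, Tgfb1 (80.0) moved above Tgfbi (54.0). Ltbp3 (14.6) moved above Tgfb3 (9.46), and Ltbp1 (10.01) moved above both Tgfb3 and Tgfbr3 (7.22).

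Tgfb1 was the main ligand transcript of the tibia shaft, at 77.9% ± 4.80 of the summed ligand level per kilobase (SD, n = 12), with 18.0% ± 3.96 for Tgfb3 and 4.08% ± 1.01 for Tgfb2. With the longest transcripts the shares were 87.0%, 10.3% and 2.65%. By group the Tgfb1 share averaged 78.3% (WT), 78.0% (Jrt;Sost-het) and 77.5% (Jrt;Sost-ko). In single mice it ran from 67.8% in WT mouse 4 to 86.3% in WT mouse 2, so the extremes were both WT.

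Tgfb1 (ENSMUSG00000002603, chr7:25687002-25705077, plus strand) encodes the ligand that is stored in bone matrix in the largest amounts. Its levels were 189, 231, 201 and 175 CPM in the 4 WT mice, 221, 188, 211 and 192 CPM in Jrt;Sost-het mice, and 212, 214, 216 and 219 CPM in Jrt;Sost-ko mice. All Jrt;Sost-ko values lay inside the range of both other groups. The log2 fold change was 0.083 ± 0.064 (SE) in Jrt;Sost-ko relative to Jrt;Sost-het mice, with a 95% interval of the fold from 0.958 to 1.17. Against WT it was 0.034 ± 0.097 in Jrt;Sost-het mice and 0.12 ± 0.086 in mice without Sost. The coefficient of variation among Jrt;Sost-ko mice was 1.34%, close to the 1.20% that read counting alone gives, compared with 7.85% among Jrt;Sost-het and 12.1% among WT mice.

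Tgfb2 (ENSMUSG00000039239, chr1:186622792-186705989, minus strand) encodes the ligand that depends most on betaglycan for receptor binding. It measured 9.28, 8.20, 13.2 and 18.4 CPM in WT, 12.2, 13.0, 12.7 and 10.8 CPM in Jrt;Sost-het and 12.4, 16.1, 15.0 and 7.34 CPM in Jrt;Sost-ko mice. WT mice held the highest value and Jrt;Sost-ko mouse 4 the lowest. The log2 fold change was 0.061 ± 0.22 in Jrt;Sost-ko relative to Jrt;Sost-het mice, with a wide 95% interval of the fold from 0.742 to 1.47. Against WT the log2 fold change was -0.0070 ± 0.24 in Jrt;Sost-het mice and 0.056 ± 0.32 in those without Sost.

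Tgfb3 (ENSMUSG00000021253, chr12:86056745-86079041, minus strand) encodes the third isoform, expressed by mesenchymal cells. Levels were 21.1, 19.8, 33.8 and 44.9 CPM in WT, 36.0, 30.1, 30.4 and 29.1 CPM in Jrt;Sost-het and 35.8, 31.0, 45.8 and 26.2 CPM in Jrt;Sost-ko mice. WT mice 1 and 2 were the lowest of all 12 and WT mouse 4 was the second highest. The log2 fold change was 0.15 ± 0.16 in Jrt;Sost-ko relative to Jrt;Sost-het mice, 0.072 ± 0.26 in Jrt;Sost-het against WT and 0.22 ± 0.29 in Jrt;Sost-ko against WT.

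For Tgfb2 and Tgfb3 the choice of WT mice set the estimate. Without WT mice 3 and 4, both Jrt groups against WT gave 0.52 for Tgfb2 (0.025 with all mice) and 0.70 for Tgfb3 (0.15 with all mice), with edgeR adjusted p of 0.29 and 0.15. Leaving out WT mouse 2 alone gave -0.12 for Tgfb2 and -0.0051 for Tgfb3. Leaving out WT mouse 4 alone gave 0.29 and 0.42.

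Tgfbr1 (ENSMUSG00000007613, chr4:47353222-47414931, plus strand) and Tgfbr2 (ENSMUSG00000032440, chr9:116084293-116175360, minus strand) encode the type I and type II receptor kinases that signal together. Tgfbr1 measured 98.1, 70.5, 87.3 and 102 CPM in WT, 101, 83.4, 84.6 and 75.6 CPM in Jrt;Sost-het and 88.0, 95.1, 97.1 and 78.2 CPM in Jrt;Sost-ko mice. Tgfbr2 measured 153, 112, 153 and 176 CPM in WT, 172, 148, 154 and 137 CPM in Jrt;Sost-het and 155, 161, 167 and 134 CPM in Jrt;Sost-ko mice. For both receptors the lowest and the highest mouse were WT mouse 2 and WT mouse 4, so the genotypes overlapped fully. The log2 fold changes of Tgfbr1 were 0.058 ± 0.10 in Jrt;Sost-ko relative to Jrt;Sost-het mice, -0.048 ± 0.13 in Jrt;Sost-het against WT and 0.0092 ± 0.12 in Jrt;Sost-ko against WT. Those of Tgfbr2 were 0.016 ± 0.089, 0.045 ± 0.14 and 0.060 ± 0.14 in the same order. The ratio of Tgfbr2 to Tgfbr1 per kilobase was 1.37 ± 0.063 over 12 mice (range 1.24 to 1.45), or 1.22 ± 0.056 with the longest transcripts.

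Tgfbr3 (ENSMUSG00000029287, chr5:107106570-107289629, minus strand) encodes betaglycan, the co-receptor that presents ligand to the type II receptor. It measured 43.4, 36.7, 47.0 and 41.8 CPM in WT, 37.0, 43.4, 59.6 and 41.3 CPM in Jrt;Sost-het and 55.9, 45.2, 42.0 and 34.3 CPM in Jrt;Sost-ko mice. The WT mice were the tightest group and fell within the range of Jrt;Sost-ko mice. WT mouse 2, at 36.7 CPM, was just below the lowest Jrt;Sost-het mouse, at 37.0 CPM. The log2 fold changes were -0.030 ± 0.18 in Jrt;Sost-ko relative to Jrt;Sost-het mice, 0.11 ± 0.15 in Jrt;Sost-het against WT and 0.078 ± 0.15 in Jrt;Sost-ko against WT.

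Ltbp1 (ENSMUSG00000001870, chr17:75005568-75392512, plus strand) encodes a protein that binds latent TGF-beta and fixes it to fibrillin in the matrix. Its levels were 58.7, 62.3, 62.2 and 64.1 CPM in WT, 78.1, 66.1, 68.5 and 60.3 CPM in Jrt;Sost-het and 80.5, 71.3, 69.3 and 60.2 CPM in Jrt;Sost-ko mice. In each Jrt group 3 of 4 mice were above every WT mouse, and mouse 4 was not. Both Jrt groups against WT gave a log2 fold change of 0.17 ± 0.079, a fold of 1.12 with a 95% interval from 0.997 to 1.27. The edgeR adjusted p was 0.999, and the exact two-sided permutation test over the 12 mice, unadjusted and 1 of 36 such tests, gave p = 0.0687. The estimate was 0.15 ± 0.080 for Jrt;Sost-het and 0.19 ± 0.090 for Jrt;Sost-ko against WT, 2 comparisons that share the same WT mice. Between the Jrt groups it was 0.044 ± 0.10.

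Ltbp3 (ENSMUSG00000024940, chr19:5740904-5758532, plus strand) encodes the latency protein whose loss causes skeletal and dental defects. It measured 67.3, 47.1, 83.9 and 112 CPM in WT, 102, 94.8, 82.1 and 80.1 CPM in Jrt;Sost-het and 80.5, 86.6, 108 and 57.2 CPM in Jrt;Sost-ko mice. WT mouse 2 was the lowest and WT mouse 4 the highest of all. The log2 fold change was -0.11 ± 0.17 in Jrt;Sost-ko relative to Jrt;Sost-het mice, 0.22 ± 0.24 in Jrt;Sost-het against WT and 0.10 ± 0.28 in Jrt;Sost-ko against WT. Both Jrt groups against WT gave 0.16 ± 0.21, which became 0.60 without WT mice 3 and 4 (edgeR adjusted p = 0.21), -0.015 without WT mouse 2 and 0.40 without WT mouse 4.

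Tgfbi (ENSMUSG00000035493, chr13:56609523-56639562, plus strand) encodes a secreted adhesion protein that TGF-beta induces. It measured 159, 161, 166 and 151 CPM in WT, 148, 184, 182 and 154 CPM in Jrt;Sost-het and 166, 178, 149 and 149 CPM in Jrt;Sost-ko mice. The WT mice lay inside both Jrt ranges. The log2 fold changes were -0.055 ± 0.093 in Jrt;Sost-ko relative to Jrt;Sost-het mice, 0.073 ± 0.081 in Jrt;Sost-het against WT and 0.018 ± 0.075 in Jrt;Sost-ko against WT. The 95% interval of the last Tgfbi value ran from -0.15 to 0.19.

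Reads from overlapping genes limit some of these values. Exons of some members, Tgfb2 and Tgfb3 among them, overlap exons of genes on the opposite strand, and an exon of Tgfbr3 overlaps the gene model Gm43422 on its own strand. The strand setting of the counting was not given in the sources used here, so reads of such pairs cannot be told apart.

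**Figure D2:**
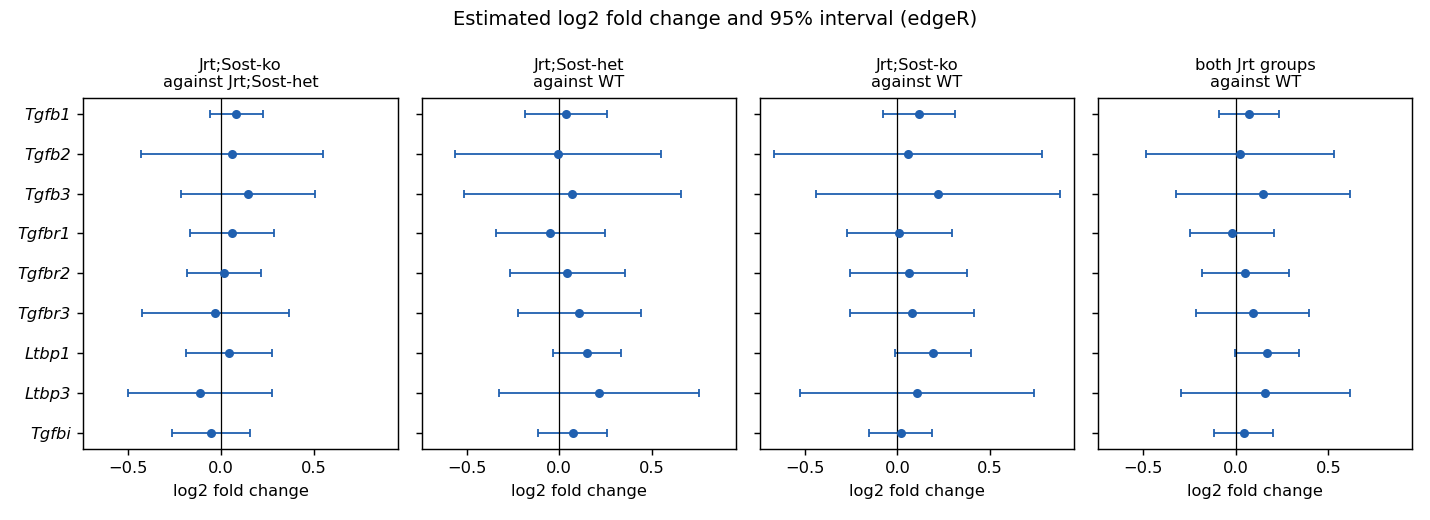
Estimated log2 fold change (points) with 95% intervals (bars) of the 9 genes in each comparison, from edgeR. All 36 intervals include 0, and the widest belong to Tgfb2, Tgfb3 and Ltbp3.

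The comparison of Jrt;Sost-ko with Jrt;Sost-het mice asks what the loss of sclerostin does on the brittle bone background. In it 0 of 9 members were called at an adjusted p under 0.05 in edgeR, beside 0.00597% of the 16739 genes tested, which is Sost alone. At an unadjusted p under 0.05 there were 0 members and 841 genes, and groups that did not overlap were found for 0 members and 3.2% of genes. DESeq2 called 15 genes and limma-voom 0, with 0 members in each. The median log2 fold change of the members was 0.044, with 6 of 9 higher in Jrt;Sost-ko mice. Over all genes the median was 0.0013, with 50.4% higher. The median of the members ran from -0.017 to 0.072 on leaving out 1 mouse at a time.

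The comparisons with WT ask how the Jrt mice, all of them also with Sost alleles missing, differ from unaffected mice. Jrt;Sost-het against WT gave 0 called members and 0% of 16775 genes called in edgeR, with 0 members and 359 genes at an unadjusted p under 0.05 and 0 genes called by DESeq2 or limma-voom. Groups did not overlap for 0 members and 1.54% of genes. The median of the members was 0.072, with 7 of 9 higher, beside 51.3% of all genes. Jrt;Sost-ko against WT gave 0 called members and 0.00583% of 17155 genes, with 0 members and 668 genes at an unadjusted p under 0.05, and 13 genes called by DESeq2 and 2 by limma-voom, no member among them. Groups did not overlap for 0 members and 2.4% of genes. The median was 0.078, with 9 of 9 higher, beside 49.1% of all genes.

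Taking both Jrt groups against WT, 0 members and 0.0058% of 17245 genes were called in edgeR, with 0 members and 553 genes at an unadjusted p under 0.05. DESeq2 called 8 genes, limma-voom 0 and neither a member. Groups did not overlap for 0 members and 0.168% of genes. The median was 0.074, with 8 of 9 higher, beside a median of -0.0028 and 48.8% higher over all genes. Without WT mice 3 and 4 these estimates were -0.00087 for Tgfb1, 0.067 for Tgfbr1, 0.22 for Tgfbr2, 0.17 for Tgfbr3, 0.20 for Ltbp1 and 0.041 for Tgfbi (edgeR adjusted p between 0.348 and 0.999), beside those of Tgfb2, Tgfb3 and Ltbp3 already given. The median of the members was then 0.20, and it was -0.0051 without WT mouse 2. These 3 comparisons share the WT mice, so their directions are not separate evidence.

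In wider lists of the pathway, 0 of 51 genes were called in edgeR in any of the 4 comparisons, and the groups overlapped for all of them. They comprised 13 genes of latency and activation, 14 co-receptors and SMAD genes, 20 response genes and 4 matrix proteoglycans that bind TGF-beta. In Jrt;Sost-ko relative to Jrt;Sost-het mice the list medians were -1.82e-05, -0.054, 0.044 and -0.16 in that order, with 6 of 13, 6 of 14, 12 of 20 and 1 of 4 genes higher. On leaving out 1 mouse at a time they ran from -0.044 to 0.061, -0.067 to 0.024, -0.079 to 0.24 and -0.28 to 0.046, so that each turned sign. In both Jrt groups against WT they were 0.052, 0.067, 0.25 and 0.33, with 7 of 13, 10 of 14, 17 of 20 and 4 of 4 genes higher. Jrt;Sost-het mice alone gave 0.058, 0.089, 0.26 and 0.37 against WT, and Jrt;Sost-ko mice 0.073, 0.036, 0.26 and 0.29. Over all genes tested the medians lay between -0.0030 and 0.0036, and the share of genes higher between 48.8% and 51.3%. Many response genes encode bone matrix proteins or their modifying enzymes (Col1a1, which carries the Jrt allele, Col1a2, Col3a1, Postn, Fn1, Lox and Plod2). In Jrt;Sost-het against WT, 17 of the 20 were higher and 3 lower, with the early targets Ctgf at 0.0018 and Klf10 at -0.0033. Whether the list median reflects TGF-beta signalling was not tested. The lists were chosen with earlier results of these data known. Genes of a list can vary together, so these counts are not of separate genes.

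**Figure D3:**
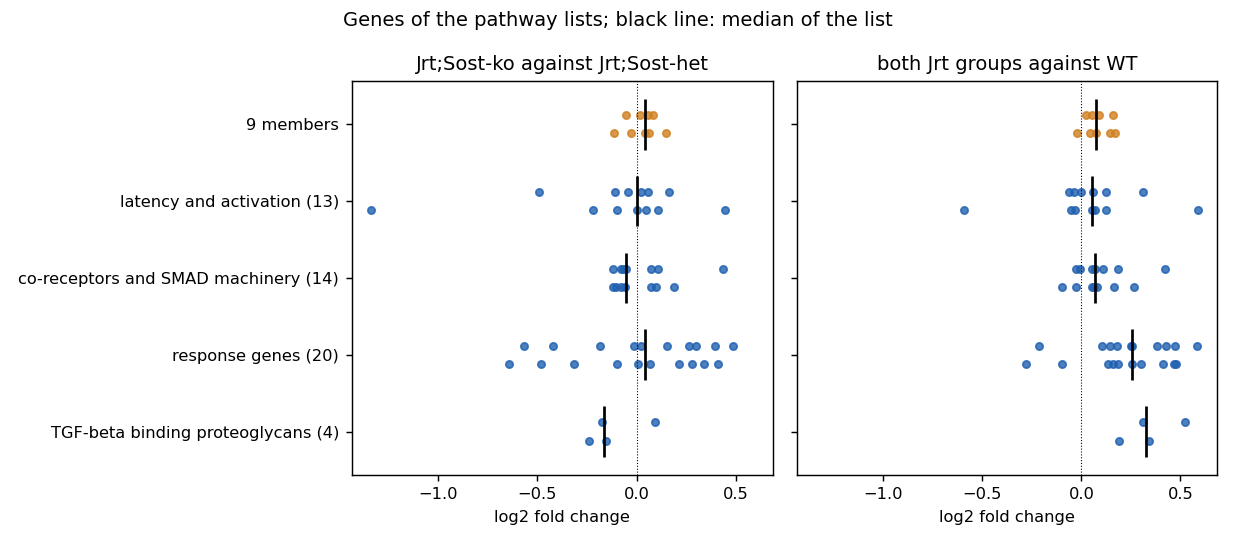
Log2 fold change (horizontal axes) of each gene of the 9 members and of the 4 wider lists, between the Jrt groups and for both Jrt groups against WT, with list medians as black lines. Against WT, 17 of 20 response genes and 4 of 4 proteoglycans lie to the right of 0, beside 48.8% of all genes. The response genes include many bone matrix genes, Col1a1 among them, and a part of TGF-beta signalling in their position was not tested. No gene shown was called.

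Osteoblast markers summed to between 1802 and 4406 CPM in WT, 3011 and 4020 CPM in Jrt;Sost-het and 3065 and 4358 CPM in Jrt;Sost-ko mice (10 of 10 markers detected), and their part in the list medians against WT was not tested. Without WT mice 3 and 4 the median of both Jrt groups against WT was 0.16 for latency and activation and 0.23 for co-receptors and SMAD genes. Without WT mice 3 and 4 the median of the response genes rose from 0.25 to 0.86 and that of the proteoglycans from 0.33 to 1.01, whereas without WT mouse 2 both were 0.13. The WT mice left by the first of these, 1 and 2, had the lowest osteoblast marker sums of all mice. Without WT mouse 4 alone the response genes of Jrt;Sost-het against WT gave 0.58 in place of 0.26.

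The rule for naming genes selected none of the wider lists, so the following were chosen after their values were seen, for an unadjusted p under 0.05 in edgeR. None passed adjustment. Plod2, the lysyl hydroxylase of collagen telopeptides, averaged 100.01 ± 41.8 CPM (WT), 126 ± 31.9 CPM (Jrt;Sost-het) and 176 ± 31.6 CPM (Jrt;Sost-ko; SD, n = 4). Its log2 fold change was 0.48 ± 0.19 between the Jrt groups (edgeR unadjusted p = 0.0291) and 0.82 ± 0.29 in Jrt;Sost-ko against WT, which became 1.45 without WT mice 3 and 4 (edgeR adjusted p = 0.240). Fbn2, a fibrillin that anchors latency proteins, averaged 18.2 ± 7.07, 23.4 ± 5.68 and 31.8 ± 8.33 CPM in the same order, with an estimate of 0.59 ± 0.25 in both Jrt groups against WT. Without WT mice 3 and 4 that estimate was 1.02 for Fbn2 (edgeR adjusted p = 0.158), and for Plod2 it was 1.20 in place of 0.58. Bambi, a decoy receptor, averaged 45.3 ± 7.58 CPM in Jrt;Sost-het and 61.3 ± 11.04 CPM in Jrt;Sost-ko mice, a log2 fold change of 0.44 ± 0.15 (edgeR unadjusted p = 0.0188, adjusted p = 0.901).

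Other genes of the lists had lower estimates in Jrt;Sost-ko mice. Fn1, fibronectin, averaged 1851 ± 588 CPM in Jrt;Sost-het and 1184 ± 322 CPM in Jrt;Sost-ko mice, a log2 fold change of -0.64 ± 0.25. Ctgf, a classical early target, averaged 97.6 ± 15.9 and 65.7 ± 23.7 CPM, a log2 fold change of -0.57 ± 0.24. Snai2, a transcription factor of mesenchymal cells, was the exception and differed by 0.26 ± 0.11 between the Jrt groups, and Klf10, an early TGF-beta response factor, by -0.19 ± 0.080 in Jrt;Sost-ko against WT. Smad7, the feedback inhibitor, averaged 16.2 ± 2.70 CPM (WT), 16.2 ± 1.36 CPM (Jrt;Sost-het) and 17.4 ± 1.61 CPM (Jrt;Sost-ko). It was added after its values were seen, for its known role, and its groups overlapped.

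Across the 12 mice, irrespective of genotype, the members fell into those that varied together and those that did not. The following Pearson r between members are descriptions over libraries that share their scaling. Tgfbr1 and Tgfbr2 had an r of 0.93, Tgfbr2 and Ltbp3 0.90, Tgfb3 and Ltbp3 0.88, Tgfb2 and Ltbp3 0.88, and Tgfb2 and Tgfb3 0.81. These 5 of 36 pairs exceeded 0.8, and the median over all pairs was 0.38. Tgfb1 stood apart from the other ligands, with an r of -0.39 to Tgfb2 and -0.22 to Tgfb3. Tgfbi reached 0.65 with Tgfbr3 and at most 0.21 with the other members.

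The levels were then set against the summed CPM of 14 lists of cell type markers, on a log2 scale, with 100000 permutations and Benjamini-Hochberg adjustment over the 126 relations. The adjusted p of Pearson's r was under 0.05 in 30 relations, 20 positive and 10 negative. All belonged to Tgfb2 (5), Tgfb3 (8), Tgfbr1 (3), Tgfbr2 (6) and Ltbp3 (8). Tgfb1, Tgfbr3, Ltbp1 and Tgfbi had 0. By ranks far fewer passed: the adjusted p of Spearman's rho was under 0.05 in 7 relations, all among those 30, with 1 for Tgfb2, 2 for Tgfb3, 1 for Tgfbr1, 2 for Tgfbr2 and 1 for Ltbp3.

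**Figure D4:**
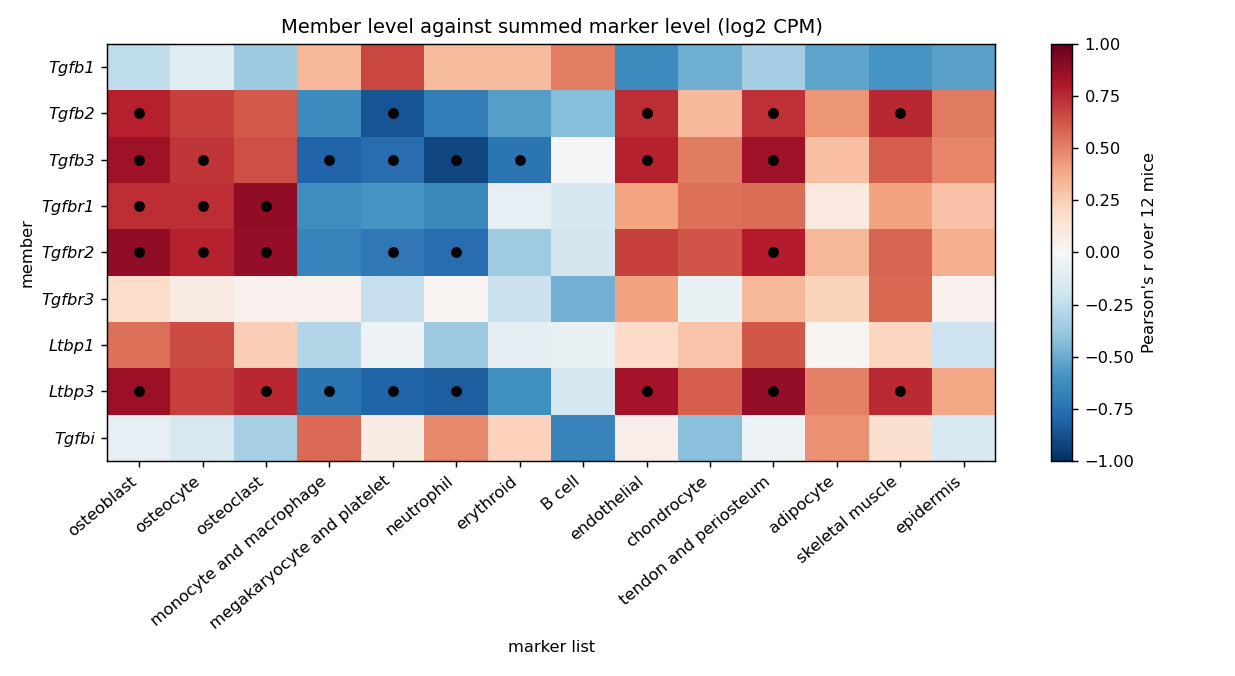
Pearson's r over 12 mice (colour, from -1 in blue to 1 in red) between log2 CPM of each gene (rows) and log2 summed CPM of each marker list (columns). Black dots mark the 30 relations with an adjusted permutation p of r under 0.05 (7 of them also by rho), and the rows of Tgfb1, Tgfbr3, Ltbp1 and Tgfbi hold none.

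Tgfb3 was high in mice with much osteoblast and little neutrophil RNA, among 8 lists that passed for it by r. With the osteoblast list (led by Spp1, mean 1170 CPM, and Ibsp, mean 688 CPM) its r was 0.85 (permutation p = 0.00024, adjusted p = 0.00567) and rho 0.81 (permutation p = 0.00218, adjusted p = 0.0392), and r was 0.72 once the 2 mice most distant from the list's median were left out. With the neutrophil list (S100a9 and Ngp, means of 5292 and 4983 CPM) r was -0.91 (permutation p = 0.00011, adjusted p = 0.00462) and rho -0.85 (permutation p = 0.00075, adjusted p = 0.0315), and r was -0.82 without the 2 farthest mice. The neutrophil markers summed to between 15269 and 28311 CPM in WT, 18060 and 23928 CPM in Jrt;Sost-het and 15334 and 22631 CPM in Jrt;Sost-ko mice. The pair of WT mice lowest in Tgfb3, mice 1 and 2, had the highest neutrophil sums of the 12, 24056 and 28311 CPM. By r alone Tgfb3 also passed with the tendon and periosteum (0.85), endothelial (0.77) and osteocyte (0.71) lists. It passed inversely with the monocyte and macrophage (-0.80), platelet (-0.76) and erythroid (-0.73) lists. The osteocyte list includes Sost, so the deletion itself lowers its sum in Jrt;Sost-ko mice (Sost at 0.671 CPM, against 39.9 in Jrt;Sost-het and 53.4 in WT mice). This holds for every relation with that list given here. How far the marker lists vary together was not tested, so no relation is shown to be particular to a cell type.

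Tgfbr1 and Tgfbr2 followed osteoclast markers, and Tgfbr3 had an r of 0.043 with them (adjusted permutation p = 0.918). With that list (Mmp9 and Ctsk, means of 1073 and 617 CPM) the r of Tgfbr1 was 0.89 (permutation p = 0.00007, adjusted p = 0.00462), rho 0.90 (permutation p = 0.00011, adjusted p = 0.012) and r without the 2 farthest mice 0.81. For Tgfbr2 r was 0.88 (permutation p = 0.00008, adjusted p = 0.00462), rho 0.85 (permutation p = 0.00104, adjusted p = 0.0328) and r without the 2 farthest mice 0.80. Tgfbr2 also followed the osteoblast list, with r 0.89 (adjusted permutation p = 0.00693), rho 0.83 (adjusted permutation p = 0.0392) and r 0.66 without the 2 farthest mice. The osteoclast markers summed to between 1622 and 3246 CPM in WT, 1989 and 3151 CPM in Jrt;Sost-het and 1964 and 2632 CPM in Jrt;Sost-ko mice. By r alone Tgfbr1 also passed with the osteoblast and osteocyte lists (0.74 each). Tgfbr2 did so with the tendon and periosteum (0.78), osteocyte (0.77), neutrophil (-0.76) and platelet (-0.72) lists. Without the 2 farthest mice, r of Tgfbr1 was 0.47 with the osteoblast and 0.68 with the osteocyte list. For Tgfbr2 r was then 0.62, 0.74, -0.70 and -0.34 in the order given.

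Ltbp3 followed the osteoblast list with r 0.85 (adjusted permutation p = 0.00812) and rho 0.82 (adjusted permutation p = 0.0392), and r was 0.64 without the 2 farthest mice. With the tendon and periosteum list (Thbs4 and Tnmd, means of 59.4 and 13.1 CPM) only r passed, at 0.88 (adjusted permutation p = 0.00567), while rho was 0.63 (adjusted permutation p = 0.13), and r was 0.72 without the 2 farthest mice. Tgfb2 was inverse to megakaryocyte and platelet markers (Ppbp and Itga2b, means of 562 and 223 CPM), with r -0.86 (adjusted permutation p = 0.00567), rho -0.90 (adjusted permutation p = 0.012) and r -0.77 without the 2 farthest mice. The relations of Tgfb2 and Ltbp3 to skeletal muscle (r 0.75 and 0.74, adjusted permutation p of 0.027 and 0.038, rho 0.56 and 0.49) rested on the extreme mice, with r 0.27 and 0.26 without the 2 farthest. Tgfb1 had an r of 0.67 with the platelet list (permutation p = 0.0167, adjusted p = 0.0602) and a rho of 0.50, and r was 0.19 without the 2 farthest mice. With the osteoblast list its r was -0.25 (adjusted permutation p = 0.587), but 0.66 without the 2 farthest mice, so that WT mouse 2 and WT mouse 4 set the sign. With 4 mice a group, no r within a genotype was computed, and since CPM are shares of a library, more RNA of 1 cell type lowers the CPM of the others. By r alone Ltbp3 also passed with the endothelial (0.83), osteoclast (0.75), neutrophil (-0.83), platelet (-0.80) and monocyte and macrophage (-0.73) lists. Tgfb2 did so with the osteoblast (0.78), endothelial (0.74) and tendon and periosteum (0.73) lists. Chondrocyte, adipocyte, epidermis and B cell markers had 0 relations with an adjusted p of r under 0.05.

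**Figure D5:**
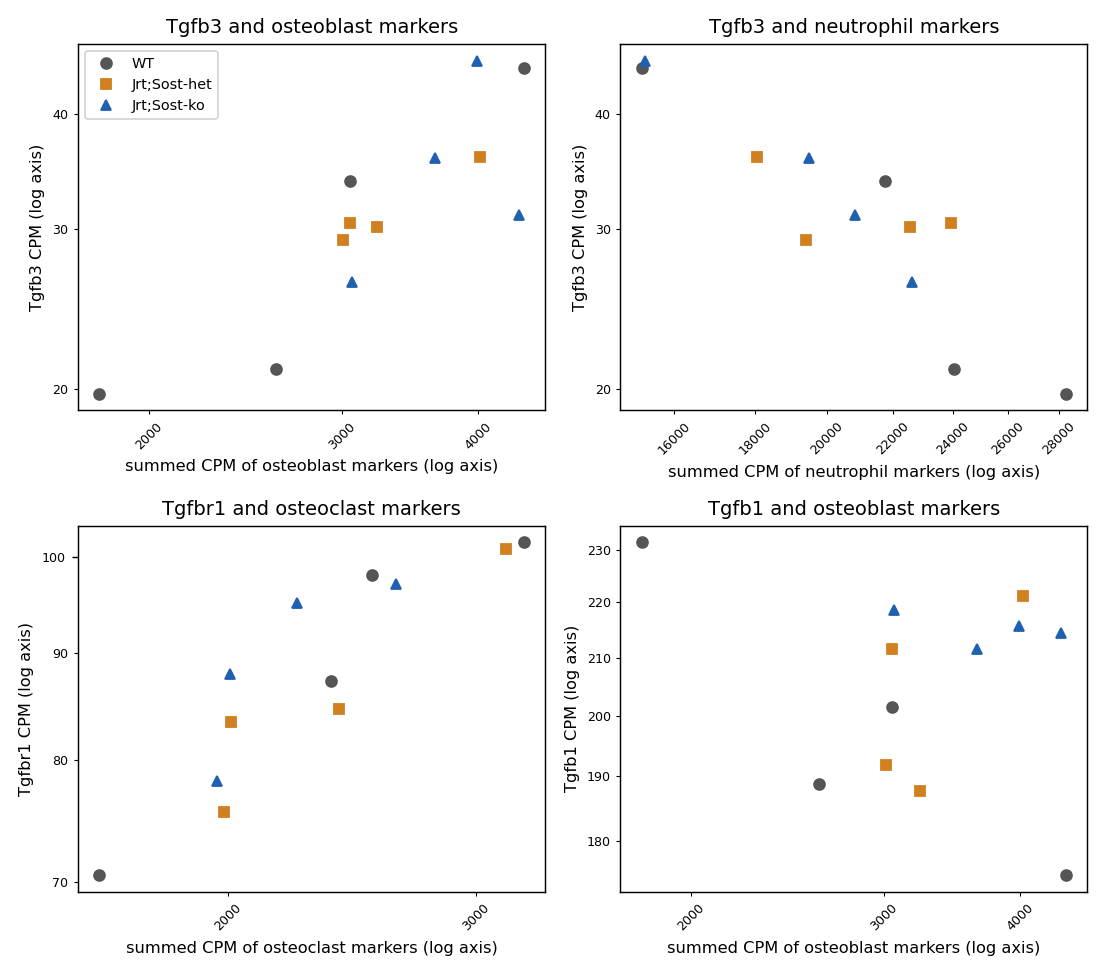
CPM of Tgfb3, Tgfbr1 and Tgfb1 (vertical, log axes) against summed CPM of marker lists (horizontal, log axes), 1 point per mouse, by group. Tgfb3 is higher where osteoblast markers are higher (r 0.85) and neutrophil markers lower (r -0.91), Tgfbr1 where osteoclast markers are higher (r 0.89), and Tgfb1 has an r of -0.25 with osteoblast markers (0.66 without the 2 farthest mice), with WT mice 2 and 4 at its extremes.

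Among 14655 genes with a mean of at least 1 CPM, those most like each member over the 12 mice were listed by Pearson's r as a description. Tgfb3 was most like Smo (0.98), the Hedgehog signal transducer, followed by Arhgap35 and Daam2 (0.97 each). Ltbp3 was most like Aebp1 (0.99), a collagen-binding matrix protein gene, then Pcsk6 (0.98) and Neo1 (0.97). Tgfb2 was most like Nsg1 (0.96), Rnf150 (0.96) and Prrx2 (0.95), the last a homeobox gene of skeletal mesenchyme. Tgfbr1 was most like Tnfrsf11a (0.96), which encodes RANK, the receptor that drives osteoclast formation, then Slc4a2 (0.96), the osteoclast bicarbonate exchanger, and Itgav (0.95), the integrin alpha-v chain. Tgfbr2 was most like Tsku (0.98), Arhgap31 (0.98) and Cd109 (0.97), the last a TGF-beta co-receptor.

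The 4 members with 0 such relations to the marker lists had fewer genes with an r above 0.9. Tgfb1 was most like Brd2 (0.92), a chromatin reader gene, Csk (0.90), a kinase that restrains Src, and Rap2b (0.89), and 2 genes exceeded an r of 0.9. Ltbp1 was most like Hif1a (0.87), the hypoxia-response factor, Junb (0.86) and Man1a2 (0.85), and Tgfbr3 like Trpc1 (0.90), Fmo2 (0.88) and Anxa4 (0.87). Tgfbi was most like Qpctl (0.90), Dpep2 (0.90) and Lbp (0.89). For each of these 3, 0 genes exceeded 0.9, whereas 300 did for Ltbp3, 174 for Tgfb3, 73 for Tgfbr2, 67 for Tgfb2 and 16 for Tgfbr1.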

How the data were processed

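RNA from tibia shafts of 12 mice was sequenced as paired reads by the authors, who aligned them to GRCm38 with STAR. The deposited matrix holds raw read counts per Ensembl gene, and its counting tool and strand setting were not given in the sources used here. Groups came from the sample labels. The members and lists were chosen with earlier results of these data known. Counts were tested in edgeR 4.0.16 (R 4.3.3) with TMM scaling, filterByExpr, quasi-likelihood tests and Benjamini-Hochberg adjustment over all genes tested, with an adjusted p under 0.05 called. Pairs of groups were fitted on their 8 mice, and both Jrt groups against WT on 12. DESeq2 1.42.0 and limma 3.58.1 (voom with quality weights) were alternatives, as were other scalings and filters, a muscle covariate and leaving out mice. The pipeline was tested on simulated data. CPM values are TMM-scaled. Exon lengths and positions came from GENCODE M21 (46488 of 47069 IDs matched). Named genes were the 9 members, wider-list genes called or, with groups that did not overlap, the 2 with the smallest p per list and comparison, the 3 most similar genes per member, the 2 highest markers per list, and Sost. Each mouse is 1 library, so p-values set differences against the spread between libraries. Animal, dissection and library preparation cannot be told apart in that spread. Read counting limits precision least for the genes with the most reads. Deposited comparison tables (9), which hold the authors' fold changes and p-values, were not used. Values of some other genes are not reported here.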

Additional observations from a re-analysis of the deposited data

Results flagged for a closer look

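Of 90 groups of 4 mice examined for a single distant mouse, 2 held one, where chance gives about 4.5. Both concern the chondrocyte markers (Acan, Col2a1, Comp, Col9a1, Matn3 and Col10a1), and no member was among them. In the Jrt;Sost-het group mouse 1 summed to 3508 CPM against 283 to 777 CPM in the other mice, a gap of 0.847 of the whole range. In the WT group mouse 4 summed to 2784 CPM against 83.7 to 541 CPM in the others, a gap of 0.831 of the range. The 2 mice were also the highest of their groups for Tgfb3, Tgfbr1, Tgfbr2, Ltbp1 and Ltbp3, and the part of chondrocyte RNA in those levels was not tested.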

How the results depend on the processing

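No member was called in any of the 675 values from alternative settings (smallest adjusted p = 0.114, Tgfb3 in Jrt;Sost-het against WT without WT mice 3 and 4). As the estimates were small, 60 of these values turned sign, 49 of them on leaving out 1 mouse. In Jrt;Sost-ko relative to Jrt;Sost-het mice, Tgfbr3 turned to 0.082 with limma-voom and 0.097 with the muscle covariate. In Jrt;Sost-het against WT, without WT mice 3 and 4, Tgfb1 was -0.033, Tgfb2 0.50 and Tgfbr1 0.049, and Tgfb2 was 0.12 with limma-voom. In Jrt;Sost-ko against WT, Tgfbr1 was -0.00417 with upper-quartile scaling and -0.00291 without a filter. In both Jrt groups against WT, without WT mice 3 and 4, Tgfb1 was -0.00087 and Tgfbr1 0.067, and Tgfbr1 was 0.00435 with limma-voom.

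Leaving out 1 mouse at a time, Jrt;Sost-ko relative to Jrt;Sost-het ranged from -0.073 to 0.24 for Tgfb2, -0.017 to 0.25 for Tgfb3, -0.027 to 0.072 for Tgfbr2, -0.16 to 0.12 for Tgfbr3, -0.030 to 0.11 for Ltbp1 and -0.26 to 0.022 for Ltbp3. Jrt;Sost-het against WT ranged from -0.030 to 0.12 for Tgfb1, -0.15 to 0.25 for Tgfb2, -0.076 to 0.34 for Tgfb3, -0.14 to 0.016 for Tgfbr1, -0.066 to 0.13 for Tgfbr2 and -0.048 to 0.19 for Tgfbr3. Jrt;Sost-ko against WT ranged from -0.093 to 0.32 for Tgfb2, -0.088 to 0.078 for Tgfbr1, -0.053 to 0.15 for Tgfbr2, -0.053 to 0.18 for Tgfbr3, -0.072 to 0.34 for Ltbp3 and -0.038 to 0.050 for Tgfbi. Both Jrt groups against WT ranged from -0.12 to 0.29 for Tgfb2, -0.0051 to 0.42 for Tgfb3, -0.12 to 0.055 for Tgfbr1, -0.060 to 0.15 for Tgfbr2 and -0.015 to 0.40 for Ltbp3. Ltbp1 stayed positive in each comparison with WT under every setting, from 0.13 to 0.21 in both Jrt groups.

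The count of all genes called moved from 1 to 15 with DESeq2 and 0 with limma-voom in Jrt;Sost-ko relative to Jrt;Sost-het (0 to 3 leaving out 1 mouse), from 1 to 13, 2 and, without a filter, 2 in Jrt;Sost-ko against WT (0 to 2), and from 1 to 8, 0 and, with the 8 Jrt mice as 1 group, 0 in both Jrt groups against WT (0 to 1). The cause was not tested. The muscle covariate or another scaling called no member. Alternatives for the wider lists were chosen after seeing the data. In them the genes named for an unadjusted p under 0.05 in edgeR kept their sign throughout, each in the comparisons that gave that p. Smad7 was not followed in this way. No paired analysis was possible because the labels give mouse numbers that are not shared between groups.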
